A study of Drosophila melanogaster with 3 samples.

Results

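The enzymes of central carbon metabolism were examined in larval heart tubes that lacked the bHLH factor Hand. A total of 42 genes were chosen by their CG numbers, which cover glycolysis and gluconeogenesis, the pentose phosphate pathway, glycogen and trehalose, pyruvate dehydrogenase, the TCA cycle, glutamate and aspartate metabolism, and arginine kinase. The choice was by pathway and its rule held no array values, but it was made with earlier results of these data known. Of these genes, 21 had a row among the 7498 genes in the table, and 8 had values on at least 2 of the 3 arrays. Homozygous hand173 null mutants were compared with w1118, which served as wild type. From wandering 3rd instar larvae raised at 22 °C and briefly heated to 60 °C before dissection, about 100 heart tubes per genotype were combined into 1 RNA pool, amplified and hybridized to 3 spotted arrays, with hand173 RNA in Alexa Fluor 647 and w1118 RNA in Alexa Fluor 555 on each array. Each genotype kept the same dye on every array, so that effects of dye and genotype cannot be told apart. Pericardial cells and attached muscles were part of the preparations, and hand173 is a single mutant line, so that its genetic background is part of the comparison. The labelling protocol in the sample labels speaks of fat bodies, whereas all tissue labels and the study's methods name hearts.

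Glycolysis splits glucose to pyruvate in the cytosol, and the TCA cycle in mitochondria oxidizes the acetyl group made from pyruvate by pyruvate dehydrogenase. Insects carry trehalose as their main blood sugar and store glycogen, with the fat body as the main site of trehalose synthesis. Muscle holds arginine kinase, which buffers ATP through phosphoarginine. Glutamate dehydrogenase and the aspartate transaminases connect glutamate with 2-oxoglutarate, an intermediate of the TCA cycle that 2-oxoglutarate dehydrogenase consumes.

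Each value is a log2 ratio of hand173 over w1118. A value above 0 is a ratio above 1 in favour of hand173, before any shift of the whole array is considered. A ratio holds no level, and levels of different genes cannot be compared. The methods of the study call the arrays technical replicates of pooled RNA, while the sample titles number them after the letters bR, whose meaning the labels leave unsaid. Following the methods, they were treated as 3 measurements of 1 pair of RNA pools. On this reading no value below carries a test of the genotypes, and each SD covers the spread between arrays only. The arrays did not share a centre, since the median of all genes was 0.97 (array 1), 0.38 (array 2) and -0.56 (array 3). A value is accordingly given as deposited and also relative to the median of its array, called centred below. By the ratio rule of the study's methods, a gene needed a log2 ratio over 0.41 on at least 2 arrays to be scored as higher, and one under -0.58, a relative level of 0.67, to be scored as lower.

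Of the 8 carbon metabolism genes with at least 2 values, 1 was scored as lower in hand173 hearts and 2 were scored as higher. Over all 2517 genes with at least 2 values, 20.5% were scored as lower and 9.69% as higher. The gene scored as lower was Ogdh (CG11661), which encodes the first subunit of 2-oxoglutarate dehydrogenase. The genes scored as higher were Gdh (CG5320), glutamate dehydrogenase, and Got2 (CG4233), the mitochondrial aspartate transaminase. With each array centred on its median, the scores of these 3 genes were the same and none of the other 5 genes was scored, against 21.9% lower and 11.8% higher over all genes. With 8 genes that could be scored, these shares are a description and do not set the pathway apart from other genes. In pooled tissue, fewer cells of a type and less RNA per cell cannot be told apart.

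**Figure D1:**
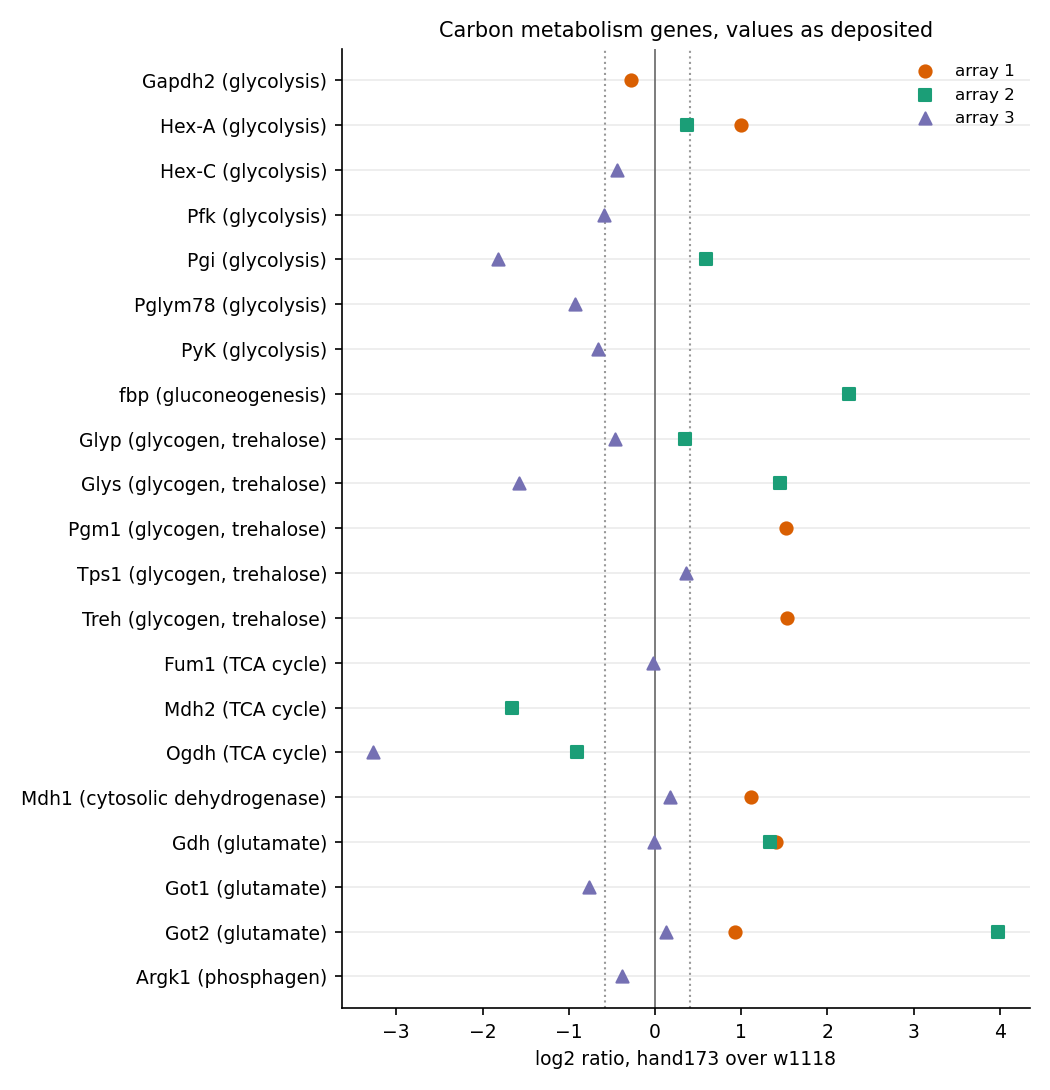
Log2 ratios of hand173 over w1118 as deposited for the 21 carbon metabolism genes with a row, by array; dotted lines mark the thresholds at -0.58 and 0.41. Values of array 1 lie mostly to the right and values of array 3 mostly to the left, beside array medians of 0.97 and -0.56.

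**Figure D2:**
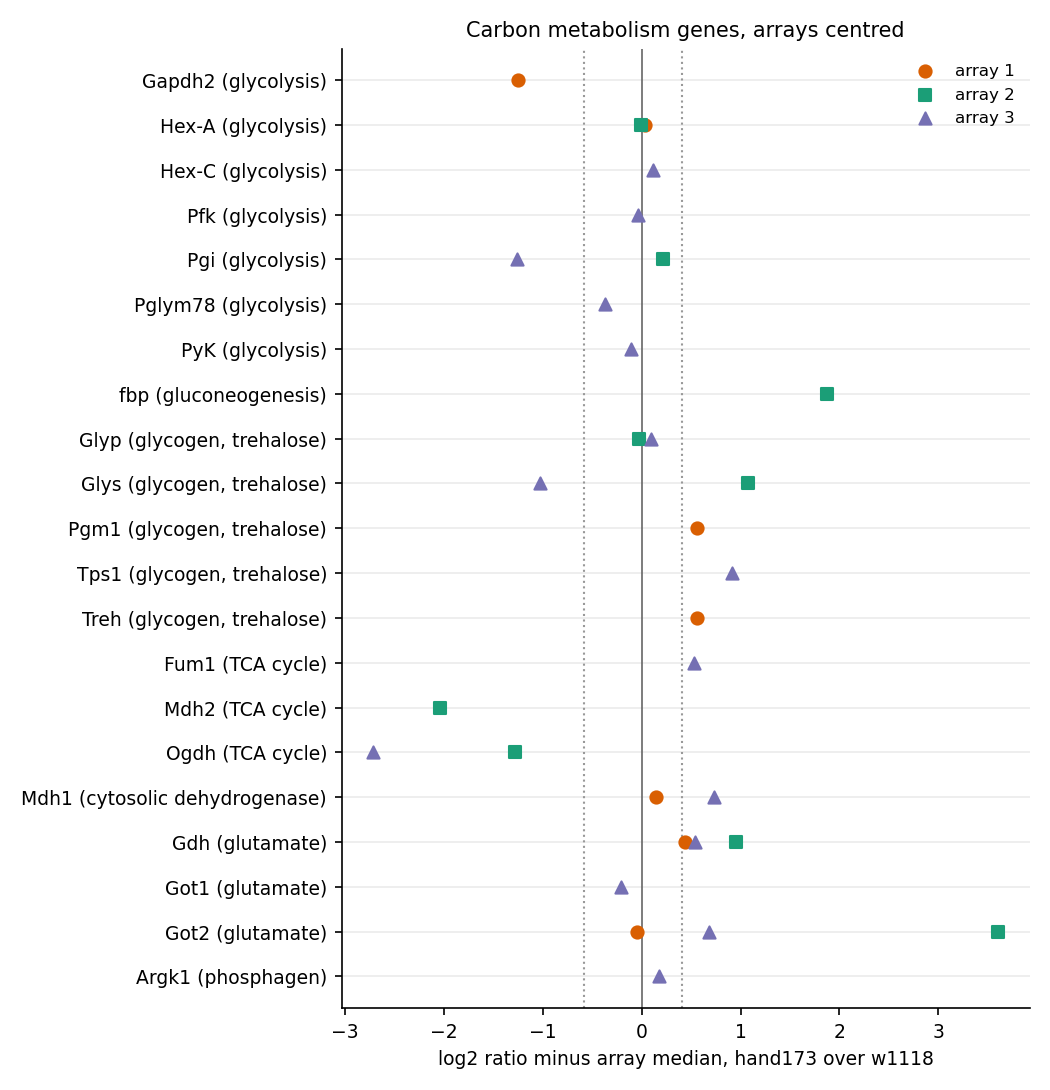
The same 21 genes with the median of each array subtracted; the x axis is the log2 ratio of hand173 over w1118 relative to that median, and dotted lines mark the thresholds at -0.58 and 0.41. Ogdh lies left of the lower line on both arrays, Gdh right of the upper line on all 3, and Got2 spans from -0.05 to 3.61.

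For Ogdh and Gdh, the study designed primer pairs for quantitative PCR on whole larvae, an assay that is not part of the array values. The primers are shown for the gene with the lowest value among these enzymes and the gene over the upper threshold on all centred arrays. Whether the primers and the array spots detect the same transcripts was not tested.
Gdh forward: tcgcctgaccttcaagtatgagc
Gdh reverse: ttgactgttggactgaggcaag
Ogdh forward: accagatcttcacccagttcgc
Ogdh reverse: gtacttgacatcaccagagccatc

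In the TCA cycle, Ogdh had log2 ratios of -0.90 on array 2 and -3.27 on array 3, relative levels of 0.535 and 0.104, and no value on array 1. Relative to the array medians the values were -1.28 and -2.72, with a mean of -2.0 ± 1.01 (SD, n = 2 arrays), or 0.25 relative to the median gene. Both arrays thus placed Ogdh low, with 18.9% of the genes lower still on array 2 and 2.57% on array 3, but they differed in size by 1.43 on the log2 scale, more than 92.1% of the genes measured on both. Among genes with values on arrays 2 and 3 only, 19.3% were scored as lower. Mdh2 (CG7998), the mitochondrial malate dehydrogenase that closes the cycle, was measured on array 2 alone, with a log2 ratio of -1.66 as deposited and -2.04 after centring. On this array 10.7% of the genes lay lower. Fum1 (CG4094), a fumarase, was measured on array 3 alone, with -0.03 as deposited and 0.53 after centring. Of the 9 TCA cycle genes, 6 had no row. They were the citrate synthase gene kdn, the aconitase gene mAcon1, Idh3a for a subunit of NAD-dependent isocitrate dehydrogenase, CG5214 for the second subunit of 2-oxoglutarate dehydrogenase, and ScsbetaA and Scsalpha1 for succinyl-CoA synthetase.

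Among the genes of glutamate metabolism, Gdh had log2 ratios of 1.41, 1.332 and -0.01 on arrays 1, 2 and 3. The first 2 values were relative levels of 2.65 and 2.52, while array 3 read 0.992. After centring the values were 0.44, 0.96 and 0.54, averaging 0.65 ± 0.27 (SD, n = 3 arrays) or 1.57-fold. Gdh thus lay above the upper threshold of 0.41 on every array, though only just on array 1. Its SD was smaller than that of 64.2% of the genes with at least 2 values. Of those genes 2051 had 2 values only, so that the rank sets SDs over unlike sets of arrays side by side. Of the 466 genes with 3 values, 32.0% were scored as higher as deposited and 13.1% after centring. Both shares are for at least 2 arrays, and the share for all 3 centred arrays was not computed.

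Got2 had log2 ratios of 0.92, 3.98 and 0.12 on arrays 1, 2 and 3. The relative level of 15.8 on array 2 lay above 99.1% of the genes on that array. After centring the values were -0.05, 3.61 and 0.68, averaging 1.41 ± 1.93 (SD, n = 3 arrays), so that the spread between arrays exceeded the mean. The score of Got2 rested on arrays 1 and 2 as deposited and on arrays 2 and 3 after centring, and array 2 was part of it in both cases. Got1 (CG8430), the cytosolic transaminase, was measured on array 3 alone and lay near the middle of that array, with -0.77 as deposited and -0.21 after centring. With array 1 left out and both other arrays required, neither Gdh nor Got2 was scored as deposited. Without array 2 neither Gdh nor Got2 was scored as deposited, and without array 3 both were. Ogdh had values on arrays 2 and 3 only, so that without either of them it could not be scored.

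Of the 12 glycolytic genes, 7 had a row. Hex-A and Pgi had 2 values each and could be scored, and neither was past the rule. Hex-A (CG3001), a hexokinase, had log2 ratios of 1.00 on array 1 and 0.37 on array 2. As relative levels these were 2.00 and 1.29, and the value of array 2 fell just short of the threshold. After centring they were 0.03 and -0.01, so that Hex-A lay at the median of both arrays. Pgi (CG8251), which interconverts glucose-6-phosphate and fructose-6-phosphate, had 0.59 on array 2 and -1.82 on array 3. After centring the values were 0.22 and -1.26, with opposite signs, and their difference was larger than for 92.8% of the genes measured on both arrays.

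On array 3 alone, 4 glycolytic genes were measured. Pfk (CG4001), phosphofructokinase, had -0.59 as deposited and -0.04 after centring. PyK (CG7070), pyruvate kinase, had -0.66 and -0.11, Hex-C (CG8094), a hexokinase found mainly in fat body, had -0.44 and 0.11, and Pglym78 (CG1721), phosphoglycerate mutase, had -0.92 and -0.37. As deposited all 4 ratios were below 1, and after centring none of them passed either threshold. On array 3, 28.1% of all genes lay under the lower threshold after centring and 27.3% over the upper one. Gapdh2 (CG8893), a glyceraldehyde-3-phosphate dehydrogenase, was measured on array 1 alone. Its log2 ratio was -0.28 as deposited and -1.25 after centring, with 8.16% of the genes of that array lower. The genes Gapdh1, Ald1, Pgk, Eno and Tpi had no row.

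All 5 genes of glycogen and trehalose metabolism had a row. Glys (CG6904), glycogen synthase, had log2 ratios of 1.45 on array 2 and -1.58 on array 3. The corresponding relative levels were 2.73 and 0.335, which lie past opposite thresholds. Centring left the values apart, with 1.07 and -1.02 (mean 0.02 ± 1.48, SD, n = 2 arrays), a difference larger than for 96.5% of the genes measured on both arrays. Glyp (CG7254), glycogen phosphorylase, had 0.35 and -0.46 on the same arrays. After centring these were -0.03 and 0.10, so that no direction was seen. Pgm1 (CG5165), phosphoglucomutase, and Treh (CG9364), trehalase, were measured on array 1 alone with 1.52 and 1.53, or 0.56 and 0.56 after centring, where 22.7% of all genes lay over the upper threshold. Tps1 (CG4104), which makes trehalose, was measured on array 3 alone with 0.36, or 0.91 after centring, above 92.5% of the genes of that array.

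The remaining groups were sparsely covered. Mdh1 (CG5362), the cytosolic malate dehydrogenase, had log2 ratios of 1.11 on array 1 and 0.17 on array 3. After centring they were 0.14 and 0.73 (mean 0.44 ± 0.41, SD, n = 2 arrays), both above the median, with array 3 alone past the threshold. The gluconeogenic gene fbp (CG31692), fructose-1,6-bisphosphatase, was measured on array 2 alone with 2.25, or 1.87 after centring, above 95.7% of the genes of that array. Argk1 (CG32031), arginine kinase, was measured on array 3 alone with -0.38, or 0.17 after centring. No row was found for Pepck1 and PCB of gluconeogenesis, for Zw and Pgd of the pentose phosphate pathway, for Pdha and Pdhb of pyruvate dehydrogenase, for the lactate dehydrogenase Ldh, or for Gpdh1, Men and Idh. A missing row or value was not read as a low level. Thus 21 of the 42 genes had a row, against 45.4% of the 13962 protein-coding genes with a CG number in RefSeq.

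On array 1 the carbon metabolism genes lay above the median of all genes in 5 cases and below it in 2, on array 2 in 5 and 4 cases, and on array 3 in 8 and 7 cases. On array 1 their centred median was 0.14 (7 genes), on array 2 it was 0.22 (9 genes) and on array 3 it was 0.10 (15 genes). On array 3, 3 of the 15 genes were under the lower threshold and 5 over the upper one, against 28.1% and 27.3% of all genes. On array 2 these numbers were 2 and 4 of 9, against 29.1% and 31.3% of all genes, and on array 1 they were 1 and 3 of 7, against 21.9% and 22.7%. The 6 genes measured on both array 2 and array 3 differed between them by a median of 1.46 on the log2 scale after centring, whereas the 1982 genes measured on both differed by 0.42. Between arrays 1 and 2 the order was the opposite, with 0.52 for 3 of the carbon metabolism genes and 0.96 for 530 genes, and likewise between arrays 1 and 3, with 0.58 for 3 genes and 0.78 for 937 genes. For Got2, Glys, Pgi and Ogdh the value on array 2 was higher than that on array 3, with differences of 2.93, 2.09, 1.48 and 1.43. For Gdh and Glyp these arrays were closer, with 0.41 and 0.12.

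**Figure D3:**
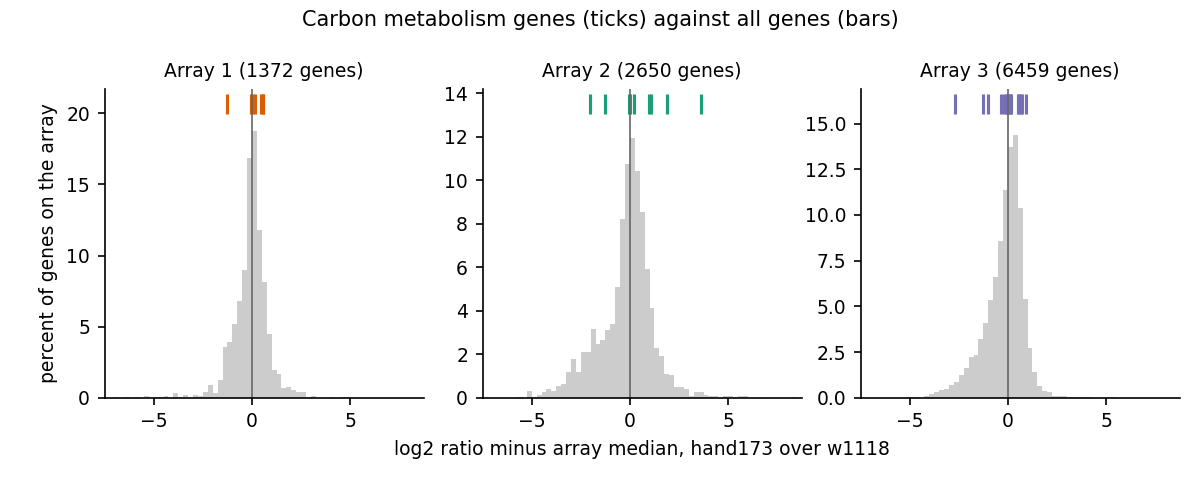
Bars give the percent of all genes of an array by their centred log2 ratio of hand173 over w1118, and ticks above them the carbon metabolism genes (7, 9 and 15 on arrays 1, 2 and 3). The ticks lie on either side of 0 on each array, with centred medians of 0.14, 0.22 and 0.10.

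Further genes of the same pathways were taken from a list of 53 genes, of which 29 had a row and 13 had at least 2 values. As deposited, 2 were scored as lower and 1 as higher, against 20.5% and 9.69% of all genes. After centring 2 were lower and 3 higher, against 21.9% and 11.8% of all genes. The genes scored as lower were muc and CG12229 in both settings. The gene muc (CG5261) encodes the dihydrolipoyl acetyltransferase of pyruvate dehydrogenase. It had log2 ratios of -1.22 on array 2 and -1.54 on array 3, and after centring -1.60 and -0.98 (mean -1.29 ± 0.44, SD, n = 2 arrays). CG12229, related to pyruvate kinase, had -1.21 on array 1 and -3.17 on array 3, or -2.18 and -2.61 after centring.

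Idh3b (CG6439), a subunit of NAD-dependent isocitrate dehydrogenase, was scored as higher in both settings. Its log2 ratios were 1.59 on array 2 and 0.45 on array 3, and after centring 1.22 and 1.01 (mean 1.11 ± 0.15, SD, n = 2 arrays). Men-b (CG5889), a mitochondrial malic enzyme, was scored after centring only, with 1.35 and 0.26 as deposited and 0.97 and 0.82 after centring. Argk2 (CG5144), related to arginine kinase, was likewise scored after centring only. Its values were 6.92 on array 2 and 0.01 on array 3, and 6.55 and 0.57 after centring, so that arrays 2 and 3 gave sizes far apart.

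**Figure D4:**
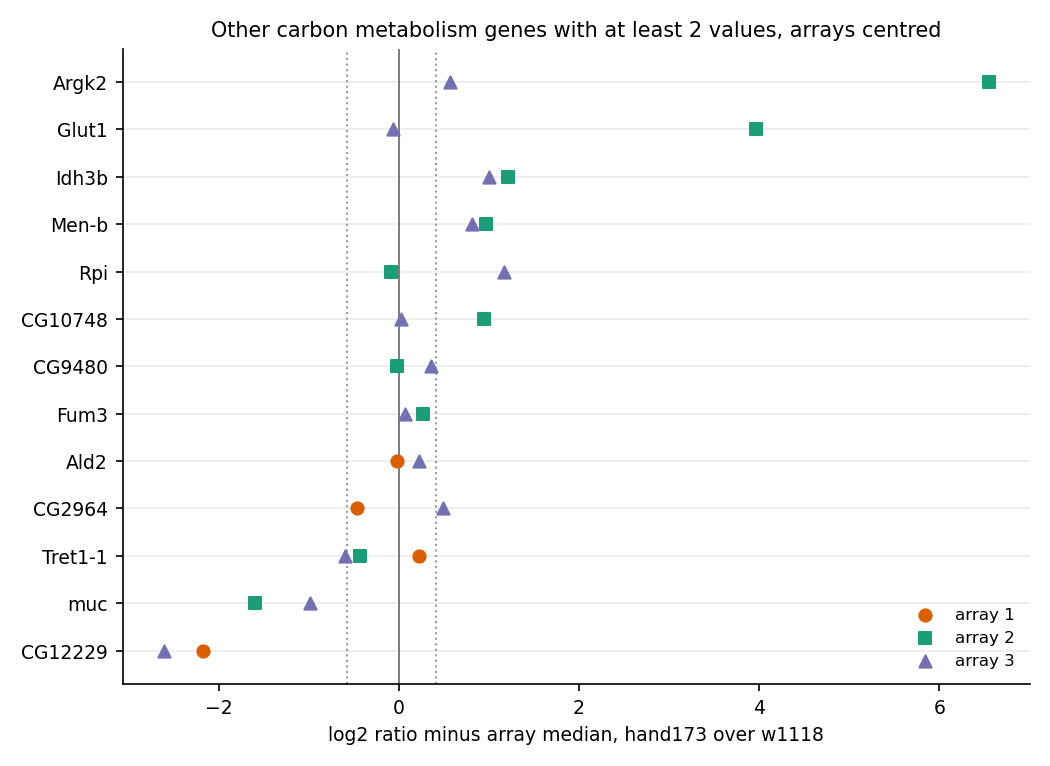
Centred log2 ratios of hand173 over w1118 by array for the 13 further carbon metabolism genes with at least 2 values, ordered by their mean; dotted lines mark the thresholds at -0.58 and 0.41. Idh3b and Men-b lie right of the upper line on both arrays, and muc and CG12229 left of the lower line.

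Genes listed as markers for the tissues of the preparation were checked on the same arrays, but whether each is limited to its tissue was not tested. Of 35 marker genes, 23 had a row, and ratios do not show whether a marker was strongly expressed. The hand gene itself (CG18144) had a value on array 3 alone, -0.16 as deposited and 0.40 after centring, and was not lower than the median gene. The part of the transcript that the allele lacks is not given in the sources used here, so that this value does not check the genotype. Of the 7 fat body markers, 6 had a row. Lsp1alpha (CG2559), a larval storage protein, was scored as lower, with log2 ratios of 1.36, -3.30 and -3.61 on arrays 1, 2 and 3. Fbp1 (CG17285) was scored as higher as deposited, with 1.10 on array 1 and 0.91 on array 2, but not after centring. The other fat body markers on array 3, Lsp1beta, Lsp1gamma and Lsp2, lay between 0.02 and 1.04 after centring. The marker apolpp was measured on array 2 alone, with 1.16 as deposited and 0.79 after centring. Of the markers listed for body wall and alary muscle, 8 of 12 had a row. The heart tube is contractile too, so that these genes do not tell attached muscle from heart. On array 3 their centred values ran from -1.61 to 1.31. There 2 of 7 were under the lower threshold and 3 over the upper one, against 28.1% and 27.3% of all genes. On array 2 the centred values of 3 of these markers ran from -0.83 to 1.78. There 1 was under the lower threshold and 1 over the upper one, against 29.1% and 31.3%. Of the 5 genes listed for the heart tube 3 had a row, with centred values from -0.10 to 0.78 on array 3. There 1 of the 3, Mef2 with 0.78, lay over the upper threshold, against 27.3% of all genes. Pericardial cell markers had a row for 3 of 6 genes and hemocyte markers for 3 of 5, each with 1 value only. After centring, 4 of these 6 lay over the upper threshold. They were sns (1.06) and srp (1.78) on array 2, and Cubn (0.80) and PPO1 (1.94) on array 3. Below it lay zfh1 with -0.005 on array 1 and NimC1 with -0.22 on array 3. Of all genes, 22.7% (array 1), 31.3% (array 2) and 27.3% (array 3) lay over that threshold. With 1 value per marker, no direction was read for either cell type. The part of tissue composition in the values of the carbon metabolism genes was not tested.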

How the data were processed

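The authors scanned spotted 14k V2 DNA-microarrays, used GenePix 6.0 and Acuity 4.1 for acquisition and normalization, and deposited a log2 ratio for each gene on each array where they kept a value. The normalization method, the filter on spots, the combination of spots, the reason for empty cells and the genome build are not given in the sources used here. The direction was taken from the dyes and checked on 543 genes of the study's gene list, of which 542 lay past the threshold on the listed side. No intensities of spots entered, which leaves the signal over background unknown, and precision is limited by the number of arrays. Arrays 1, 2 and 3 held 1372, 2650 and 6459 values.

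Values were read as deposited and with each array's median subtracted. Following the methods, which call the arrays technical replicates, 1 RNA pool per genotype was assumed and no p-value was computed. The titles, which read bR, do not settle this. Genes were scored by the ratio rule of the study's methods. The list of genes was given, and it and the further lists were chosen with earlier results of these data known. Every gene of the list was named, with all values where at least 2 arrays held one. All 42 numbers were found in RefSeq (assembly Release 6 plus ISO1 MT), which gave the symbols. Coordinates are not given, since the build of the arrays is unknown. The scoring code was checked on simulated data with large shifts and little noise, which does not show how the rule performs on these arrays. Python 3.11.15, numpy 2.4.6, pandas 2.3.3 and matplotlib 3.10.9 were used.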

Additional observations from a re-analysis of the deposited data

How the results depend on the processing

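The scores of Ogdh, Gdh and Got2 were the same with arrays centred, with arrays centred and scaled, and with a symmetric threshold of 1.5. When all 3 arrays had to pass, 2 carbon metabolism genes could be scored, of which 0 were lower and 0 higher, against 2.15% and 1.07% of all 466 genes with 3 values. By the usual rule among these genes, 0 of the 2 were lower and both were higher, against 45.3% and 32.0%. When the mean ratio had to pass, 2 of 8 were lower and 4 higher, with Pgi, Hex-A and Mdh1 added, against 26.5% and 26.8% of all genes. At 2-fold 0 were lower and 1, Gdh, was higher, against 16.8% and 1.83%. Each array was also left out in turn, with values as deposited and both remaining arrays required. Without array 1, 1 of 6 was lower and 0 higher, against 25.3% and 1.97% of all genes. Without array 2, 0 of 3 were lower and 0 higher, against 2.45% and 4.38%. Without array 3, 0 of 3 were lower and 2 higher, against 2.26% and 32.8%. The loss follows in part from the genes that then lack a second value.

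Of the further genes, Tret1-1 alone had 3 values and did not pass, which leaves 0 lower and 0 higher with all 3 arrays and among genes with 3 values. By the mean ratio 5 of 13 were higher, against 26.8% of all genes. At 2-fold and at 1.5, 0 were higher, against 1.83% and 6.71%. With arrays centred, and with arrays centred and scaled, 3 were higher, against 11.8% and 11.0%. Without array 1, 1 of 10 was lower and 1 higher, against 25.3% and 1.97% of all genes. Without array 2, 1 of 4 was lower and 0 higher, against 2.45% and 4.38%. Without array 3, the 1 gene that could be scored was neither, against 2.26% and 32.8%.

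As deposited, the median of the carbon metabolism genes was 1.11 (array 1), 0.59 (array 2) and -0.46 (array 3), which carries the level of each array. No paired analysis was possible because each array already sets both genotypes against each other and there is 1 group of arrays. Shares of motifs in promoters and the identity of paralogous proteins were not run, since no sequences were given.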
